A study of Mus musculus with 7 samples.

Results

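Immediate early genes are the genes that neurons transcribe within minutes of synaptic activity, before any new protein is made. Calcium entry and kinase signalling act on factors already bound at their promoters, chiefly CREB at cyclic AMP response elements (CRE) and serum response factor at CArG boxes. Many of the products are transcription factors that switch on later genes, and others act directly at synapses or shut the signal down again. In the hippocampus, Arc and Fos transcripts are widely used to mark neurons that were recently active, and several of these genes are needed for lasting memory.

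The 35 immediate early genes described here were taken by symbol from a table of 21965 genes, and all 35 were among the 14417 genes that passed a filter on low counts. They fall into 4 groups by what their products do. These are 7 subunits of the AP-1 transcription factor or their partners, 10 other transcription factors, 7 effectors and 11 feedback regulators and growth-control proteins. Some of the effectors act at synapses or outside the cell. The RNA came from mouse hippocampus in 3 libraries from mice labelled as blank controls (Control) and 4 from mice exposed to noise at 110 dB for 2 h (NIHHL, noise-induced hidden hearing loss). Both groups were sampled 1 month after induction, and the study asked which hippocampal genes accompany impaired memory in noise-exposed mice. Strain, sex, age, the interval between the last handling of the animals and dissection, and whether each library is a separate animal are not given by the sources used. P-values therefore measure the spread between these samples, which may be technical.

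Total counts ran from 14871367 to 24515138 per library, and the 35 genes held 0.113% to 0.152% of them. All 19 hippocampal neuron markers were expressed, with Camk2a between 3396 and 4403 CPM (a count scaled to the size of its library) and Prox1, a dentate granule cell factor, between 101 and 166 CPM. Fewer cells of a type and less RNA per cell cannot be told apart in such bulk samples. The libraries differed in other tissue too: 14 choroid plexus markers summed to between 209.5 and 7271 CPM in Control, against between 683.5 and 8922 CPM in NIHHL. The mean was higher in NIHHL for all 14, and for 11 of 11 astrocyte and 9 of 11 oligodendrocyte markers. It was higher for 7 of 11 microglial and 4 of 14 endothelial and pericyte markers, against 49.9% of all genes tested. By edgeR 5 of the 11 oligodendrocyte markers had an unadjusted p under 0.05, against 3.63% of all genes. The part of these cell types in the levels of the 35 genes was not tested. The libraries differed by gene length as well. Among well-expressed genes, the deviation of log2 CPM from the gene's mean was correlated with exon length in each library. Spearman rho was 0.45 in Control replicate 1, -0.579 in Control replicate 2 and 0.523 in NIHHL replicate 4. The other libraries lay from -0.33 to 0.105. The part of gene length in the levels of the 35 genes was not tested.

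Sequences before the gene start are shown for 5 genes whose values in every library are given below, to let their activity elements be read beside those values. They are from RefSeq on GRCm38.p6, written 5′ to 3′ on the gene's strand. Capitals mark the CRE half-site TGACG on either strand (CGTCA on the strand shown) and, in Egr2, also the CArG box. For Fos, Nr4a1 and Junb the 250 bases before the gene start are given. For Egr2 and Npas4 it is a window of 30 bases, where other gene models place exon sequence. Where a gene had several listed starts, the one with the most motif matches is shown, here and below.
Fos (chr12:85473640-85473889, plus strand): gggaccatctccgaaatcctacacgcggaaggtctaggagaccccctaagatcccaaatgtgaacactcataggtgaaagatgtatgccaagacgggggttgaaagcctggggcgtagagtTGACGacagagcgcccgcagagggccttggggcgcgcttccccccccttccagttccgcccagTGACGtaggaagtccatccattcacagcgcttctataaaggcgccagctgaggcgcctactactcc
Nr4a1 (chr15:101266596-101266845, plus strand): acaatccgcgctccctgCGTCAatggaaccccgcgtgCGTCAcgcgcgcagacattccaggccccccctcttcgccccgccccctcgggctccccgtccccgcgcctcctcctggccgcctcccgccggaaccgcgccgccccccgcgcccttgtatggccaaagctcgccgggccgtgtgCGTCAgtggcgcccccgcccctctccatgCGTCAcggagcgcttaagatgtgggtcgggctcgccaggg
Junb (chr8:84978749-84978998, minus strand): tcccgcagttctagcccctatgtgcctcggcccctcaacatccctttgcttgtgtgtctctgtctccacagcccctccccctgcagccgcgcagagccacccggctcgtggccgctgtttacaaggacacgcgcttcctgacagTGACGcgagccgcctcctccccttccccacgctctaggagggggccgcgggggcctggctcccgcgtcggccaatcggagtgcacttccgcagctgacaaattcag
Egr2 (chr10:67537793-67537822, plus strand): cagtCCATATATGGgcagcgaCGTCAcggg
Npas4 (chr19:4990128-4990157, minus strand): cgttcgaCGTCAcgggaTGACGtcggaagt

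A complete CRE, TGACGTCA, stood in the 250 bases before the start of 4 genes, shown with their flanks and the element in capitals.
Plk2 (chr13:110394961-110395010, plus strand): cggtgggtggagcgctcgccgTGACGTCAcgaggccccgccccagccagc
Arl4d (chr11:101665494-101665540, plus strand): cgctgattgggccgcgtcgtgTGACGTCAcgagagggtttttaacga
Dusp1 (chr17:26508587-26508636, minus strand): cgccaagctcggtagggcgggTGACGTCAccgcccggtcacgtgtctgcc
Btg2 (chr1:134079293-134079342, minus strand): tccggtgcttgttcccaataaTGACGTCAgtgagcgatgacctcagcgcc

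Of the 35 genes, 28 had an entry in the promoter table; Arc, Egr1, Egr3, Ier2, Nptx2, Sik1 and Trib1 had none. The complete CRE was in 4 of 28 (14.3%), against 1.77% of 27025 genes with an entry. A gene counted if any of its listed starts had the motif. Half-sites, which include those inside a complete CRE, were in 18 of 28 (64.3%) against 19.8%, and the CArG box was in Dusp5 and Egr2, 7.14% against 1.62%. The element in Plk2 began 62 bases before the gene start, that in Arl4d 26, that in Dusp1 143 and that in Btg2 166 bases before it. These matches describe the letters only, and elements more than 250 bases before the start were not searched for. The 4 genes with a complete CRE were not among those with the smallest p between the groups: their log2 fold changes, NIHHL minus Control, were 0.09 (SE 0.07) for Plk2, -0.063 (SE 0.16) for Arl4d, -0.073 (SE 0.19) for Dusp1 and 0.14 (SE 0.12) for Btg2.

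A month after noise, no immediate early gene passed the test for a difference between the groups. The mean was lower in NIHHL for 25 of the 35 and higher for 10, with a median log2 fold change of -0.12, where 50.1% of all genes tested were lower, 49.9% were higher and their median was -5e-04. With edgeR (quasi-likelihood F test) 0 of the 35 members and 0 of all 14417 genes (0%) had an adjusted p under 0.05. The 3 members Junb, Egr2 and Csrnp1, had an unadjusted p under 0.05 and all were lower in NIHHL. With all 7 libraries 523 of all genes (3.63%) had such a p in either direction, 1.31% being lower with it and 2.32% higher. Leaving out 1 library gave between 1 and 7 such members, and the count over all genes moved as well. Without Control replicate 1 there were 7 such members and 808 such genes. Without Control replicate 3 the only such member was Npas4, higher in NIHHL, among 547 such genes. DESeq2 called 4 of 18177 genes (0.022%), none of them a member, and gave 2 members and 447 genes an unadjusted p under 0.05.

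**Figure D1:**
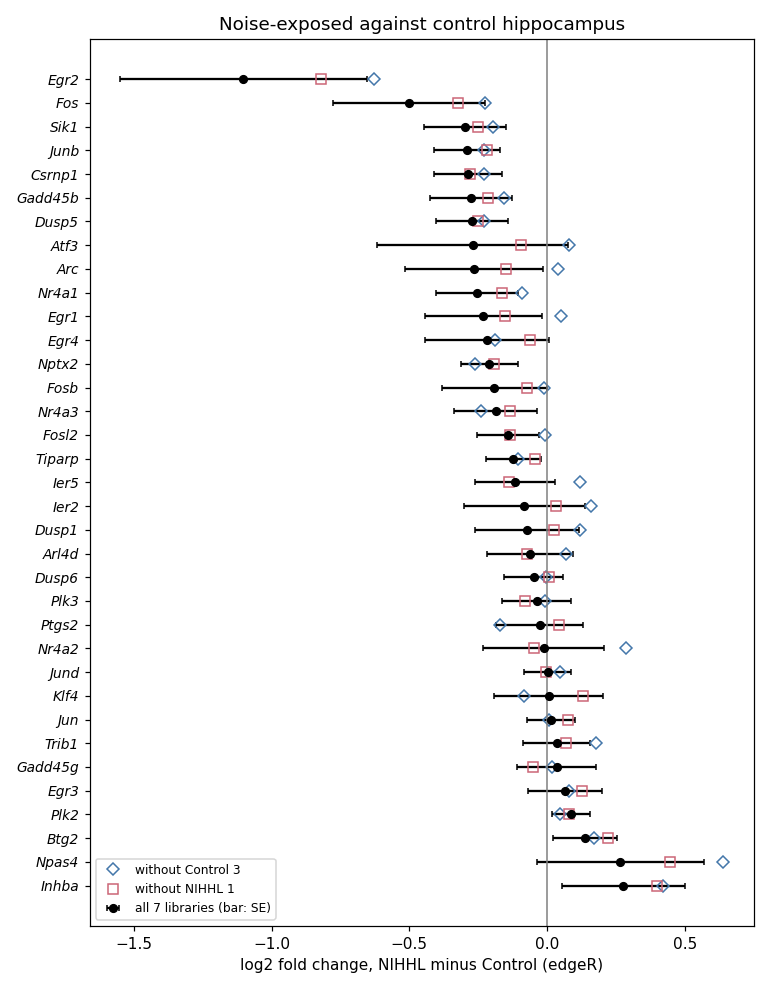
Log2 fold change (NIHHL minus Control, edgeR) of each of the 35 genes, with bars of 1 SE for all 7 libraries and open symbols for the value without Control replicate 3 or without NIHHL replicate 1. Egr2 lies farthest from 0 at -1.10, and the values for Arc and Egr1 cross 0 without Control replicate 3.

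The count of lower means depended on Control replicate 3. Without that library 18 of 35 members were lower, beside 50.8% of all genes, and the median was -0.0025. Without NIHHL replicate 1 there were 23 lower and the median was -0.072. Control replicate 3 was the highest library for 18 of the 35 genes (51.4%), against 10.8% of all genes tested, and NIHHL replicate 1 was the lowest for 17 (48.6%), against 10.1%. NIHHL replicate 4 was the highest for 9 (25.7%), against 20.4%, and NIHHL replicate 3 for 0. The median member stood 0.27 log2 units above its own mean over the 7 libraries in Control replicate 3, and 0.14 above it in NIHHL replicate 4. It stood 0.23 below the mean in NIHHL replicate 1 (-0.2315) and 0.12 below it in Control replicate 1 (-0.1227). Each group thus held a library with high and a library with low immediate early transcripts.

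**Figure D2:**
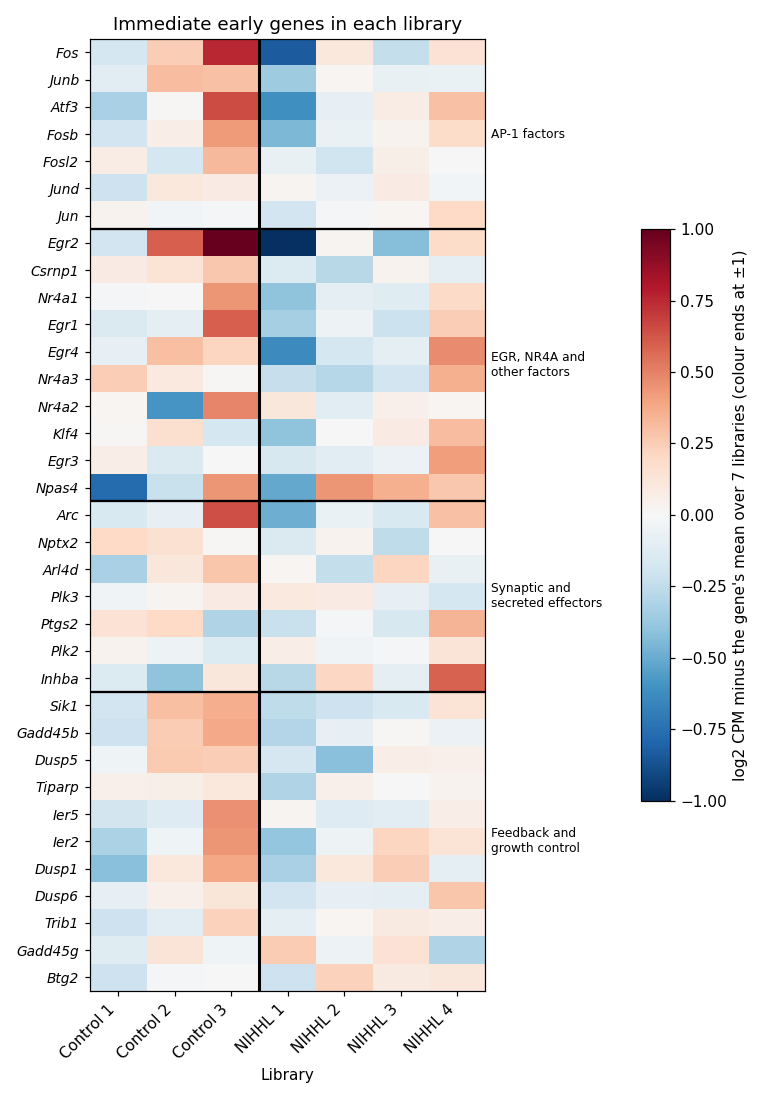
Each row is a gene and each column a library; colour gives the log2 CPM minus the gene's mean over the 7 libraries, with red above it, blue below and the scale ending at 1 unit either way. Control replicate 3 is the reddest column and NIHHL replicate 1 the bluest, and rows such as Plk2 and Plk3 are pale throughout.

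AP-1 is a dimer of Fos and Jun proteins that binds DNA and drives later transcription. Of its 7 genes 5 had a lower NIHHL mean (median log2 fold change -0.19), and 0 were called. The median was -0.0072 without Control replicate 3, -0.096 without NIHHL replicate 1 and -0.32 without Control replicate 1. Fos (ENSMUSG00000021250) stood at 10.99, 14.8 and 21.1 CPM in Control replicates 1 to 3 and at 6.95, 13.4, 10.5 and 13.7 CPM in NIHHL replicates 1 to 4. Of the NIHHL libraries 2 lay below all Control libraries and the other 2 among them, so the groups overlapped. The log2 fold change of Fos was -0.50 (SE 0.28, 95% interval -1.14 to 0.13), with an adjusted p of 0.996 by edgeR and an exact permutation test (two-sided, over 35 splits) gave p = 0.257, where the smallest possible p is 0.0286. Without Control replicate 3 its value was -0.22.

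Junb, a partner of Fos, had the smallest p of all members. Its levels were 33.6, 45.02 and 44.6 CPM in Control replicates 1 to 3 and 28.4, 36.9, 34.5 and 34.9 CPM in NIHHL replicates 1 to 4. Control replicate 1 was below all NIHHL libraries but replicate 1. The log2 fold change of Junb was -0.29 (SE 0.12), with p = 0.0325 before and 0.996 after adjustment by edgeR, and p = 0.200 by the exact permutation test. Junb shares 173 exon bases with Prdx2 on the opposite strand in the GENCODE M21 annotation, and the sources used here do not say whether counting used strand. Prdx2, a peroxidase, was at 188 ± 23.3 CPM in Control, against 174 ± 9.19 CPM in NIHHL (mean ± SD, 3 and 4 libraries). If counting did not use strand, reads of Prdx2 in the shared bases cannot be told apart from reads of Junb.

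The remaining AP-1 genes differed less. Fosb was at 6.49 ± 1.43 CPM in Control, against 5.73 ± 1.04 in NIHHL, and Fosl2 at 50.5 ± 8.67 and 45.7 ± 3.52 CPM. Atf3, a stress-induced factor that pairs with Jun proteins, had only 12 to 36 counts per library and stood at 1.19 ± 0.460 CPM in Control, against 1.00 ± 0.274 in NIHHL, highest in Control replicate 3 and lowest in NIHHL replicate 1. Jun and Jund had nearly equal means in Control and NIHHL, at 84.9 ± 2.00 and 85.7 ± 9.58 CPM for Jun and 50.6 ± 5.90 and 50.7 ± 2.16 CPM for Jund. Jund shares 877 of its 1668 exon bases with an antisense gene, and Jun 232 of 3189.

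The 10 other transcription factors include the EGR zinc-finger proteins, the NR4A nuclear receptors and Npas4, which neurons induce through calcium. Their median log2 fold change was -0.20, 7 were lower in NIHHL and 0 were called. Without Control replicate 3 the median was -0.086, without NIHHL replicate 1 it was -0.099 and without NIHHL replicate 4 it was -0.32. Egr2 (ENSMUSG00000037868), which carries the CArG box shown above, had the largest difference of the 35 genes. It stood at 2.16, 3.82 and 6.51 CPM in Control replicates 1 to 3 and 0.782, 2.53, 1.82 and 2.83 CPM in NIHHL replicates 1 to 4. These values come from 17 to 138 counts per library, and 2 of the 4 NIHHL libraries lay within the Control range. The log2 fold change of Egr2 was -1.10 (SE 0.45, unadjusted 95% interval -2.12 to -0.09), with p = 0.0366 before and 0.996 after adjustment by edgeR and p = 0.171 by the exact permutation test. It was -0.63 without Control replicate 3.

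Egr1, the best-known member of the family, was at 103, 106 and 172 CPM in Control replicates 1 to 3 and 90.6, 110, 98.1 and 135 CPM in NIHHL replicates 1 to 4. Control replicate 3 was 1.64 times the mean of the other Control libraries, and without it the log2 fold change went from -0.23 (SE 0.21) to 0.05. Egr3 stood at 84.0 ± 6.26 CPM in Control, against 87.8 ± 17.6 in NIHHL, where replicate 4 reached 114 CPM and the other 3 lay between 76.2 and 81.8. Egr4 was at 14.8 ± 2.00 and 12.8 ± 4.15 CPM, with both its highest and its lowest library in NIHHL.

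Nr4a1 was at 51.6, 52.0 and 70.4 CPM in Control replicates 1 to 3 and 39.2, 48.6, 47.7 and 59.3 CPM in NIHHL replicates 1 to 4. Its log2 fold change was -0.25 (SE 0.15), adjusted p = 0.996 by edgeR and p = 0.286 by the exact permutation test, and -0.09 without Control replicate 3. Nr4a2 had nearly the same mean in both groups, 46.4 ± 16.8 CPM in Control, against 45.9 ± 2.91 in NIHHL, with both its highest (63.5 CPM, replicate 3) and its lowest (30.04 CPM, replicate 2) library in Control. Nr4a3 was at 94.1 ± 7.90 and 82.7 ± 18.7 CPM: 3 NIHHL libraries, at 70.8 to 75.6 CPM, were below all Control libraries, and replicate 4, at 111 CPM, was above them.

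Npas4, unlike Fos, had the higher mean in NIHHL. It stood at 3.84, 5.66 and 9.01 CPM in Control replicates 1 to 3 and 4.60, 9.02, 8.48 and 8.02 CPM in NIHHL replicates 1 to 4. NIHHL replicate 2 was just above the highest Control library, the other NIHHL libraries lay within the Control range, and the groups overlapped. The log2 fold change was 0.27 (SE 0.30, 95% interval -0.42 to 0.95), with an adjusted p of 0.996 by edgeR and p = 0.429 by the exact permutation test. Without Control replicate 3 it was 0.64, with an unadjusted p of 0.0496 by edgeR.

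Csrnp1, a nuclear protein induced by growth signals, was the member whose groups were best separated. It was at 8.36, 8.68 and 9.57 CPM in Control replicates 1 to 3 and 7.18, 6.49, 8.09 and 7.37 CPM in NIHHL replicates 1 to 4. Every NIHHL library was below every Control library. The log2 fold change of Csrnp1 was -0.29 (SE 0.12), with p = 0.0411 before and 0.996 after adjustment by edgeR and p = 0.0571 by the exact permutation test. It kept its direction without any single library, between -0.34 and -0.23. Only Tiparp was also free of overlap, so that 2 of 35 members were separated, where 5.2% of all genes tested were separated in either direction, 2.37% with lower and 2.84% with higher NIHHL libraries. Csrnp1 shares 224 exon bases, and Tiparp 223, with a gene on the opposite strand. Klf4 was at 3.76 ± 0.447 CPM in Control, against 3.79 ± 0.765 in NIHHL.

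**Figure D3:**
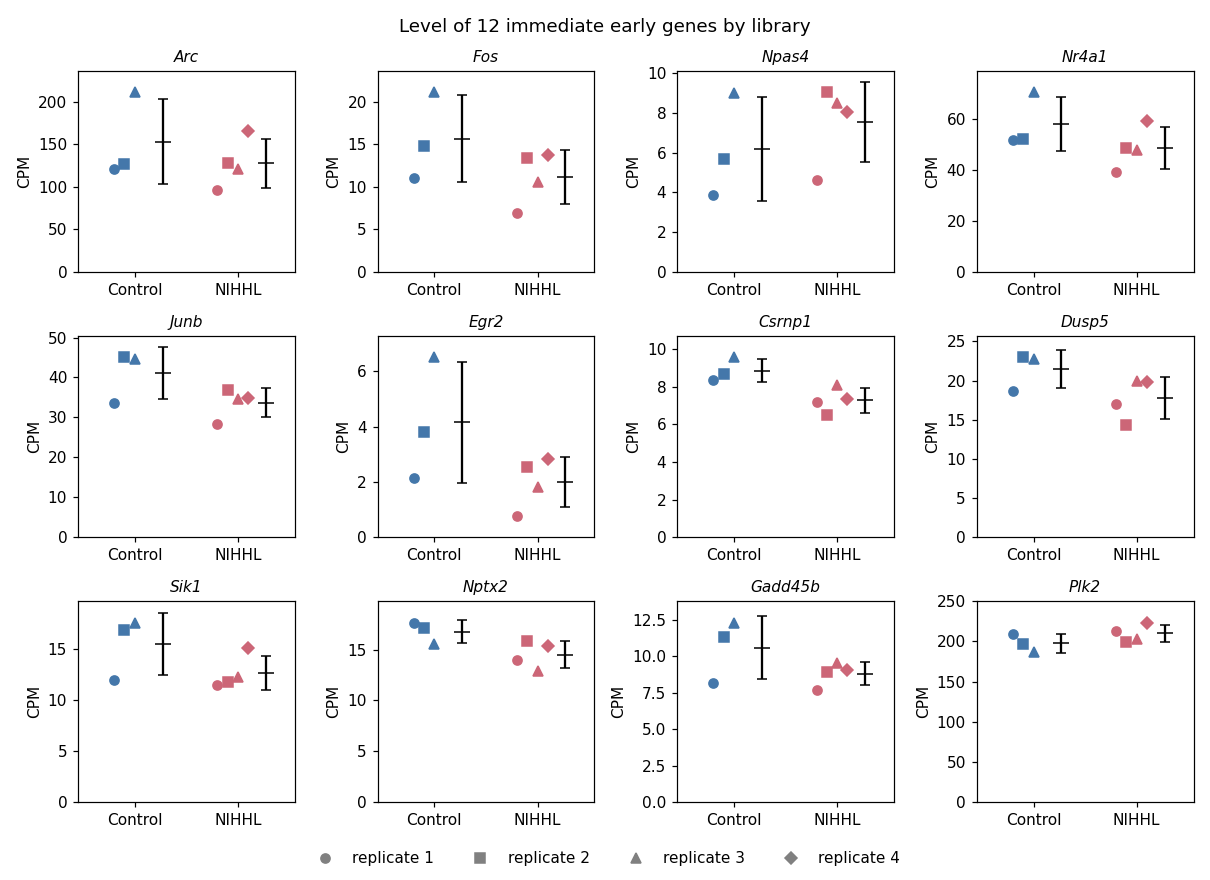
CPM of 12 genes in each library, with symbol shape for the replicate number and the mean ± SD of the 3 Control and 4 NIHHL libraries beside the points; each axis starts at 0. Control replicate 3 is the top point of its group for Arc, Fos, Npas4, Nr4a1 and Egr2, and Csrnp1 is the only panel in which the groups do not overlap.

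Among the 7 effectors, Arc trims AMPA receptors from the synapse and Nptx2 is secreted to cluster them. Plk2 and Plk3 are kinases, Ptgs2 makes prostaglandins, Inhba is an activin subunit and Arl4d is a small GTPase. Their median log2 fold change was -0.038, 5 were lower in NIHHL and 0 were called. The median turned to 0.039 without Control replicate 3, lay between -0.072 and -0.016 without any other single library, and was -0.19 with an ependymal covariate. Arc (ENSMUSG00000022602) was at 121, 127 and 211 CPM in Control replicates 1 to 3 and 95.7, 128, 121 and 165 CPM in NIHHL replicates 1 to 4. Control replicate 3 was 1.70 times the mean of the other Control libraries, and NIHHL replicate 4 was 1.72 times NIHHL replicate 1, so the span within each group exceeded the difference between the groups. The log2 fold change was -0.26 (SE 0.25, 95% interval -0.86 to 0.33), with an adjusted p of 0.996 by edgeR and p = 0.457 by the exact permutation test. Without Control replicate 3 it was 0.039.

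Nptx2 was lowest in Control replicate 3 among the Control libraries. It was at 17.7, 17.1 and 15.6 CPM in Control replicates 1 to 3 and 13.9, 15.8, 12.9 and 15.4 CPM in NIHHL replicates 1 to 4, with 3 of 4 NIHHL libraries below the Control range. Its log2 fold change was -0.21 (SE 0.10), adjusted p = 0.996 by edgeR and p = 0.114 by the exact permutation test, and it was between -0.26 and -0.16 without any single library.

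Plk2, which carries the complete CRE shown above, was the steadiest of the 35 genes, at 198 ± 11.6 CPM in Control, against 210 ± 10.7 in NIHHL. Its level per kilobase of exon was 45.6 CPM, close to that of Arc at 45.3, while Arc spanned a 2.202-fold range over the 7 libraries and Plk2 a 1.20-fold range. Per kilobase, Jund (30.4), Jun (26.8) and Egr1 (26.0) followed, and Atf3 (0.502) was lowest. Inhba stood at 4.34 ± 0.787 CPM in Control, against 5.27 ± 1.45 in NIHHL, where replicate 4 was highest at 7.20 CPM. Ptgs2 was at 19.3 ± 3.50 and 19.0 ± 3.52 CPM, Arl4d at 10.98 ± 2.26 and 10.6 ± 1.41 CPM and Plk3 at 7.12 ± 0.297 and 6.93 ± 0.635 CPM.

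The last 11 genes act after the signal. Dusp1, Dusp5 and Dusp6 are phosphatases that switch off MAP kinases, Sik1 is a kinase that restrains CREB coactivators, and Btg2, Gadd45b and Gadd45g are linked to growth arrest. Of the 11, 8 had a lower NIHHL mean (median log2 fold change -0.083), and 0 were called. The median turned to 0.016 without Control replicate 3. It was -0.044 without NIHHL replicate 1 and between -0.23 and -0.13 without Control replicate 1 or 2 or NIHHL replicate 3 or 4. Dusp5, whose promoter also held a CArG box, was at 18.6, 23.0 and 22.7 CPM in Control replicates 1 to 3 and 17.0, 14.3, 19.99 and 19.8 CPM in NIHHL replicates 1 to 4. Of the NIHHL libraries 2 were below the Control range. Its log2 fold change was -0.27 (SE 0.13), adjusted p = 0.996 by edgeR and p = 0.171 by the exact permutation test. The value was -0.18 without NIHHL replicate 2. Dusp5 shares 547 exon bases with an antisense gene.

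Sik1 was at 12.001, 16.9 and 17.6 CPM in Control replicates 1 to 3 and 11.5, 11.8, 12.3 and 15.1 CPM in NIHHL replicates 1 to 4. Gadd45b was at 8.16, 11.3 and 12.3 CPM in Control, against 7.69, 8.91, 9.52 and 9.08 CPM in NIHHL. In both genes Control replicate 1 lay at the level of NIHHL and the other Control libraries above every NIHHL library. The log2 fold changes were -0.30 (SE 0.15) for Sik1 and -0.28 (SE 0.15) for Gadd45b, each with an adjusted p of 0.996 by edgeR, and the exact permutation test gave p = 0.200 and p = 0.229. Sik1 was at -0.20 without Control replicate 3, and Gadd45b at -0.16. Without Control replicate 1 they were at -0.45 and -0.42.

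Tiparp, an ADP-ribosyltransferase, stood at 26.4 ± 0.518 CPM in Control, against 24.3 ± 2.67 in NIHHL. Its groups were separated by a narrow margin, since NIHHL replicate 2 was at 25.9 CPM and Control replicate 1 at 26.0, and only NIHHL replicate 1, at 20.3 CPM, lay far off. Dusp1 was at 17.97 ± 4.85 and 17.2 ± 2.92 CPM, Dusp6 at 57.4 ± 4.10 and 55.5 ± 8.39 CPM, Ier2 at 4.25 ± 1.19 and 4.05 ± 0.733 CPM and Ier5 at 34.4 ± 8.97 and 31.8 ± 2.13 CPM. Trib1 (13.0 ± 2.16 and 13.4 ± 0.706 CPM), Gadd45g (9.997 ± 0.901 and 10.2 ± 1.69 CPM) and Btg2 (16.6 ± 1.28 and 18.4 ± 2.29 CPM) had slightly higher means in NIHHL.

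Libraries of a group differed more in these genes than in most. The median within-group SD of log2 CPM was 0.236 for the 35 members and 0.148 over all genes tested, which were not matched for level. It was 0.249 against 0.145 in Control and 0.225 against 0.134 in NIHHL, so the wider spread was not limited to the group with the high library. The within-group SD was largest for Egr2 (0.777), Npas4 (0.512), Fos (0.457) and Atf3 (0.434) and smallest for Plk2 (0.078) and Plk3 (0.109). The SD was larger in Control than in NIHHL for 20 of 35 members (57.1%), near the 56% of all genes.

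The members did not all move together from library to library. Arc was taken as the reference and log2 CPM was correlated with it over the 7 libraries, which share scaling and, for 3 and 4 of them, a group. Egr1 followed it most closely (Pearson r = 0.985, Spearman rho = 0.964, exact permutation p = 0.000397 and p = 0.00278), then Nr4a1 (r = 0.976, rho = 0.821, exact permutation p = 0.00198 and p = 0.0341). Atf3 had r = 0.948 and rho = 0.857 (exact permutation p = 0.00377 and p = 0.0238), Fosb r = 0.936 and rho = 0.893 (exact permutation p = 0.00575 and p = 0.0123), and Fos r = 0.904 and rho = 0.857 (exact permutation p = 0.0129 and p = 0.0238). No correlation passed after adjustment over all 14416 genes compared with Arc (adjusted p = 1 for each), a family in which the smallest exact p is 0.000198. Above 0.8 were 8 of the other 34 members (23.5%) against 1.04% of all genes, and the median r was 0.609 against -0.035.

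The covariation of several genes with Arc changed without the libraries at the ends. Control replicate 3 and NIHHL replicate 1 were farthest from the median of Arc, and without them Egr1 (r = 0.98) and Nr4a1 (r = 0.891) stayed close to Arc over the 5 libraries left. Fos went to 0.50 and Egr2 from 0.878 to 0.35, and Junb from 0.675 to -0.108. Other genes came closer to Arc: Ier5 went from 0.752 to 0.957, Jun from 0.543 to 0.89, Egr3 from 0.51 to 0.862 and Klf4 from 0.289 to 0.859. In all, 24 of the 34 had r above 0 over the 5 libraries, against 30 over 7, where 46.6% of all genes did. Above 0.8 were 8 in each case, but only Egr1, Nr4a1 and Dusp6 were among both. The share of all genes was not computed for the 5 libraries. Plk2 (r = -0.414), Plk3 (-0.168) and Gadd45g (-0.609) ran against Arc over all 7 libraries, and Ptgs2 had r = -0.001. Without the 2 libraries Plk2 was at 0.798 and Ptgs2 at 0.717, while Plk3 (-0.637) and Gadd45g (-0.764) stayed below 0. With each group centred on its own mean, the r values of Egr1 and Nr4a1 were 0.982 and 0.989.

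**Figure D4:**
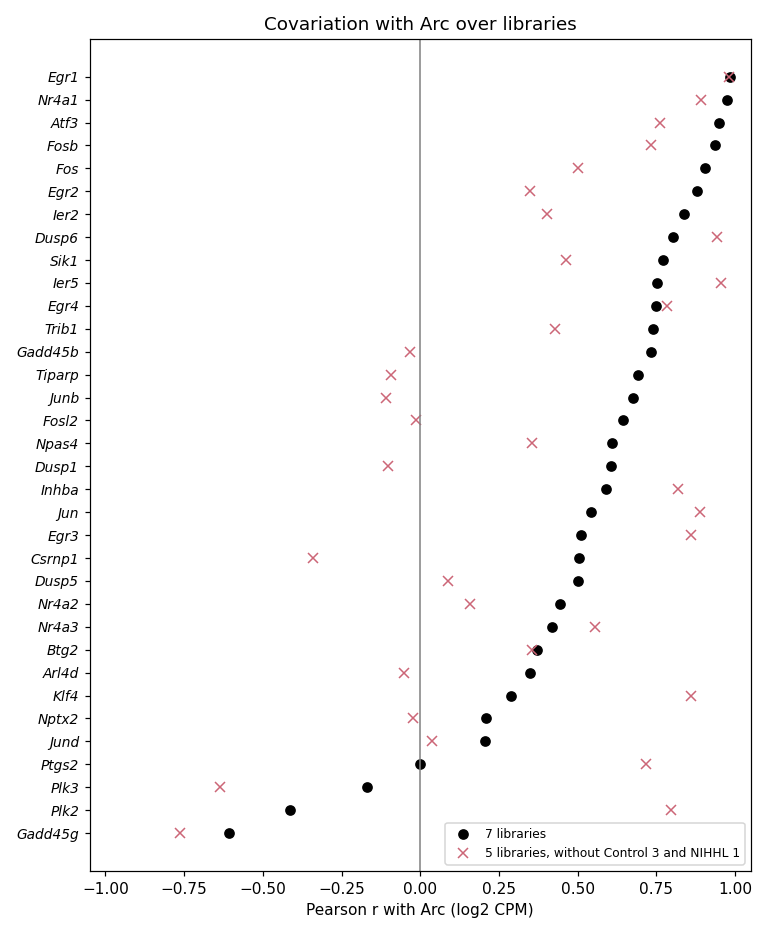
Pearson r of log2 CPM between Arc and each of the other 34 genes, over all 7 libraries (dots) and over the 5 left without Control replicate 3 and NIHHL replicate 1 (crosses). Egr1 and Nr4a1 keep r of 0.89 or more in both, and Junb, Csrnp1 and Gadd45b drop to below 0 without the 2 libraries.

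Other lists placed these libraries in part alike and in part differently. Heat shock genes, chaperones induced by cell stress, were also highest in Control replicate 3 for 8 of 12 genes and stood there 0.39 log2 units above their mean. The smallest p of that list belonged to Dnajb1, a co-chaperone, at 52.2, 59.0 and 80.45 CPM in Control replicates 1 to 3 and 49.4, 50.9, 49.9 and 58.3 CPM in NIHHL replicates 1 to 4, and Hspa1b, an inducible Hsp70, at 12.1, 14.3 and 35.4 CPM and at 10.2, 10.9, 11.01 and 18.6 CPM. Of the 12 heat shock genes 9 had a lower NIHHL mean and 0 were called, with adjusted p = 0.996 by edgeR for both named; the median log2 fold change was -0.088, and 0.0087 without Control replicate 3. For 19 hippocampal neuron markers the mean deviation in that library was -0.11, the lowest of the 7. For 12 striatal and thalamic markers it was 0.23, the highest, with 8 of 12 above their mean. Their summed level was 144 to 199 CPM in Control, against 161 to 215 CPM in NIHHL, and none was at 0 in any library. For 8 cortical markers, a list added after values of these libraries had been seen, it was 0.25, with 5 of 8 above their mean. Among them was Tshz2, at 124 CPM against 65.7 and 28.4 CPM in Control replicates 1 and 2. Below their means there were Lmo3 (154 CPM, its lowest library), Fezf2 (29.8 CPM) and Rasgrf2 (102 CPM). The summed level of the cortical markers was 385 to 518 CPM in Control, against 439 to 478 CPM in NIHHL, and none was at 0. NIHHL replicate 4, the second-highest library for the immediate early genes, was at -0.22 for the cortical list. NIHHL replicate 1, the lowest for the immediate early genes, was at 0.14 for the cortical list, with 6 of 8 above their mean. The part of these lists in the levels of the immediate early genes was not tested.

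**Figure D5:**
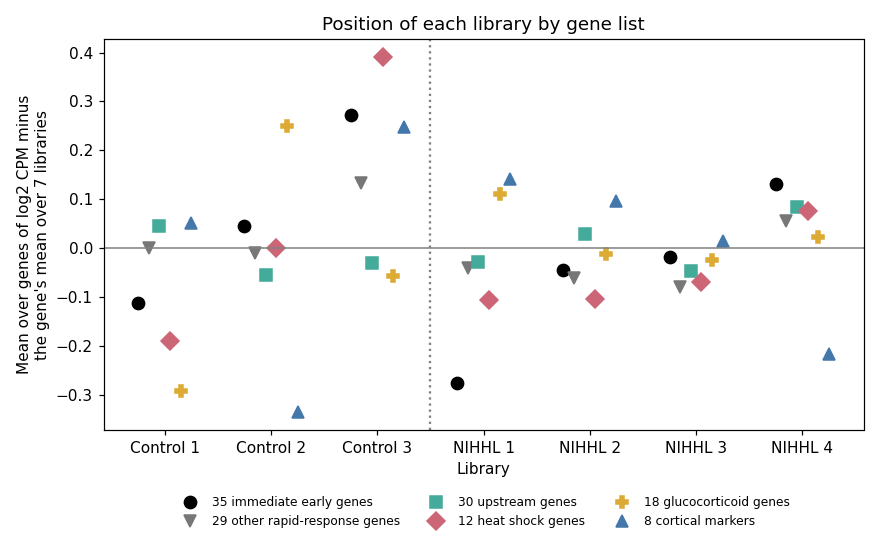
Mean log2 deviation of 6 gene lists in each library, where 0 is the gene's mean over the 7 libraries. In Control replicate 3 the immediate early, heat shock and cortical lists are all high, and in NIHHL replicate 1 the immediate early genes are the lowest list at -0.27.

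Ependymal markers, of the ciliated cells that line the ventricles, had a higher mean in NIHHL for all 14 tested, with 0 called and 9 at an unadjusted p under 0.05 by edgeR, summing to 80.3 to 98.5 CPM in Control, against 116 to 144 CPM in NIHHL, and none was at 0. Their part in the differences of the immediate early genes was not tested. Every NIHHL library was above every Control library in the mean of these markers, so a fit with that mean as a covariate cannot separate it from the group. In that fit the members had a median of -0.18 and 24 were lower. Over all genes 1581 had an unadjusted p under 0.05 by edgeR, against 523 without the covariate.

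Among 30 other rapid-response genes, 29 were tested (not Fosl1) and 0 called, with 17 lower in NIHHL and a median log2 fold change of -0.076. By edgeR 3 of the 29 had an unadjusted p under 0.05, all lower in NIHHL, against 3.63% of all genes in either direction. The smallest p belonged to Nfil3, a transcriptional repressor, at 9.16 ± 1.28 CPM in Control, against 6.96 ± 0.326 in NIHHL (log2 fold change -0.39, SE 0.13), and Klf10, at 33.0 ± 3.22 and 26.0 ± 4.93 CPM (-0.34, SE 0.13), each with an adjusted p of 0.996 by edgeR. Every NIHHL library was below every Control library for Nfil3. Control replicate 3 was the highest library for 13 of the 29. The lists here share some genes.

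Genes that carry the signal to the promoters were steadier. Of 30 upstream genes 18 were higher and 12 lower in NIHHL (median log2 fold change 0.030, 0 called), and Control replicate 3 was the highest library for 2. Mrtfa, a coactivator of serum response factor, was at 59.0 CPM in Control, against 64.4 in NIHHL (0.13, SE 0.08), and Creb1 at 46.0 and 51.2 CPM (0.15, SE 0.10). Late-response genes, which follow the immediate early factors, were split evenly in direction, with 12 of 24 lower, a median of -0.0027 and 0 called. By edgeR 4 of the 24 had an unadjusted p under 0.05, 3 lower and 1 higher in NIHHL, against 3.63% of all genes. Pcsk1, a prohormone convertase, was at 25.5, 26.1 and 32.3 CPM in Control replicates 1 to 3 and 21.03, 22.1, 20.3 and 22.5 CPM in NIHHL replicates 1 to 4, with no overlap, and Rgs4, a regulator of G protein signalling, was at 181 and 160 CPM (log2 fold change -0.18, SE 0.07). Both had an adjusted p of 0.996 by edgeR.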

How the data were processed

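Hippocampal RNA was sequenced in 3 Control and 4 NIHHL libraries. Per the labels' protocols, polyadenylated RNA was taken with oligo(dT) beads and made into libraries with a NEBNext Ultra kit. The authors deposited expected counts per gene, not scaled to library size (90.7% whole numbers); per the submitters' processing notes, Bowtie2 2.2.8, HISAT2, StringTie 1.3.1 and DESeq2 were used, with no role given. The aligner settings, build, annotation and strand setting were not given in the sources used here.

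Expected counts were rounded and filtered with edgeR's filterByExpr (minimum count 10), leaving 14417 genes with 99.96% of counts. Libraries were scaled by TMM, and log2 CPM carry a prior count of 2. Groups were compared by edgeR's quasi-likelihood test (robust, group only), Benjamini-Hochberg adjusted over all genes, called under 0.05. Each SE is |log2 fold change| over the root of the F statistic. The test was checked on simulated counts. How well it finds differences as small as those of most members was not tested. Total counts of 14871367 to 24515138 set the counting precision. Software was R 4.3.3, edgeR 4.0.16, limma 3.58.1 and DESeq2 1.42.0. Exon lengths and overlaps are from GENCODE M21 (GRCm38), matched by identifier for all 35 members.

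Members and lists were chosen with earlier results of these data known. Values in every library are given for Arc, Fos, Junb, Npas4 and Nr4a1 and the 8 members with the smallest p; from each pathway list the 2 with the smallest p are named. Egr1 and Tshz2, and single-library values of other genes, were chosen after values were seen, as were the promoters printed. Alternatives were another scaling, no filter, DESeq2, limma-voom, a replicate block, an ependymal covariate and left-out libraries.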

Additional observations from a re-analysis of the deposited data

Results flagged for a closer look

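Among the 4 NIHHL libraries, 1 library stood far from the other 3 for 3 of the 35 genes, by a gap divided by the whole range above the 95% critical value of Dixon's test. Nr4a3 had a ratio of 0.878, with NIHHL replicate 4 at 111 CPM above 70.8 to 75.6 CPM in the others. Egr3 had a ratio of 0.852, again with replicate 4 high, at 114 CPM above 76.2 to 81.8 CPM. Tiparp had a ratio of 0.875, with replicate 1 low, at 20.3 CPM below 25.2 to 25.9 CPM. With all 35 genes looked at, some such gaps arise by chance alone. The 3 Control libraries are too few for this check.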

How the results depend on the processing

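No member was called in any of the 14 alternative settings. The median over members was below 0 in each, but without Control replicate 3 it was -0.0025, beside -0.0031 over all genes tested. Members with a higher mean in NIHHL numbered from 8 to 17 when single libraries were left out (17 without Control replicate 3). Over all genes DESeq2 called 4. The fit without both Control 2 and NIHHL 4, the libraries with the lowest and highest correlation with exon length, called 1. That fit left 6 members higher and gave medians of -0.1587 for other rapid-response and -0.0294 for upstream genes. With the ependymal covariate the medians were 0.1262 for upstream and -0.0965 for late-response genes. Leaving out single libraries gave medians of -0.1063 to 4e-04 for other rapid-response genes and -0.0865 to 0.0025 for late-response genes. The cause of these shifts was not tested.

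The labels do not say that replicate numbers pair the libraries. With each group centred on its own mean, same-numbered libraries had correlations of -0.448, -0.445 and 0.061 over all genes tested. With so few libraries that also differ in tissue content, these values cannot show whether a number marks a shared batch. With the replicate number as a block 0 genes were called, 339 genes (523 without the block) and 8 members (3 without it) had an unadjusted p under 0.05, and these log2 fold changes took the other sign: Jun -0.0565, Egr3 -0.0851, Nr4a2 0.0455, Klf4 -0.1062, Plk3 0.01.

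Other log2 fold changes took the other sign as follows. DESeq2 gave Jund -2e-04, and limma-voom Nr4a2 0.0599, Klf4 -0.0283. The ependymal covariate gave Fosl2 0.0225, Jund -0.1551, Egr4 0.0429, Nr4a2 0.1066, Nr4a3 0.3367, Npas4 -0.229, Ptgs2 0.2738, Dusp6 0.0893, Btg2 -0.0428, Trib1 -0.0678, Gadd45g -0.2325. Without both Control 2 and NIHHL 4 the values were Jun -0.0644, Egr3 -0.1424, Klf4 -0.0116, Plk3 0.0139, Inhba -0.0401, Trib1 -0.0291. Leaving out single libraries gave these ranges: Arc -0.4125 to 0.0387, Arl4d -0.2094 to 0.0681, Atf3 -0.4549 to 0.081, Dusp1 -0.2559 to 0.1211, Dusp6 -0.158 to 0.0062, Egr1 -0.361 to 0.0498, Egr3 -0.0853 to 0.1264, Gadd45g -0.0523 to 0.1311, Ier2 -0.2322 to 0.1604, Ier5 -0.2275 to 0.1207, Jun -0.0527 to 0.0772, Jund -0.0899 to 0.0585, Klf4 -0.1057 to 0.1303, Nr4a2 -0.2504 to 0.2862, Plk3 -0.0802 to 0.0122, Ptgs2 -0.1716 to 0.0758, Trib1 -0.0483 to 0.1783. Without changing sign, single libraries moved Fos from -0.6918 to -0.2244, Nr4a1 from -0.3616 to -0.0897, Npas4 from 0.035 to 0.6395 and Egr2 from -1.3906 to -0.6283. Counts of 12 to 36 for Atf3 and 17 to 138 for Egr2 limit their precision.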

Other observations

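Glucocorticoid-responsive genes, which stress hormones induce, share Per1, Sgk1 and Errfi1 with the rapid-response list and Cdkn1a with the late-response list. They were split evenly: 9 of 18 were higher in NIHHL and 9 lower, with a median log2 fold change of -0.013. By edgeR 0 were called and 2 had an unadjusted p under 0.05. That median ran from -0.087 without Control replicate 1 to 0.082 without Control replicate 2, and was -0.11 with an ependymal covariate and 0.12 without both Control 2 and NIHHL 4. Ddit4, an inhibitor of mTOR signalling, was at 36.9 ± 5.04 CPM in Control and 31.7 ± 1.66 in NIHHL (log2 fold change -0.22, SE 0.10), highest in Control replicate 2 at 42.7 CPM. Per1, a clock gene, was at 65.2 ± 5.26 and 57.4 ± 4.63 CPM (-0.19, SE 0.08), highest in Control replicate 3 at 70.9 CPM.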
